A study of Mus musculus with 24 samples.

Results

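Polyribosomal RNA of Fmr1 KO cerebral cortex was compared with that of WT cortex on 12 of the 24 arrays of the study, 6 per genotype, chosen as all arrays whose titles name polyribosomal RNA. Of the 45037 probe sets on the array, 17687 were measured here, meaning that 6 or more of the 12 arrays gave a log2 value of at least 4. They covered 9664 genes, each represented by its brightest probe set on average over all 24 arrays. The mice were male FVB littermates aged 7 days, wild type (WT) or null for Fmr1 (Fmr1 KO). Each array held the pooled cortices of 2 mice, dissected free of white matter, so the neurons and glia of a whole cortex are measured together. Polyribosomal RNA came from gradient fractions 10 to 13 of 16, where mRNAs carry 6 or more ribosomes. A lower value does not tell an mRNA that left the ribosomes from one on fewer of them. Nor does it tell these from an mRNA that moved to any other fraction outside 10 to 13, which the polyribosomal arrays did not measure. The other 12 arrays held total RNA of the same lysates and serve here as the level beside which a polyribosomal difference is read.

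FMRP, the protein made from Fmr1, is an RNA-binding protein that sits on polyribosomes of neurons and is best known as a brake on the translation of the mRNAs it binds. Its loss causes fragile X syndrome. Many of its targets encode large synaptic scaffold, cytoskeletal, channel and signalling proteins, and its relatives FXR1 and FXR2 share its RNA-binding domains. An mRNA's abundance on polyribosomes depends on its total amount and on how many of its copies carry ribosomes, and does not report how fast those ribosomes move.

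In each of the 12 arrays, 38.8% to 39.4% of probe sets reached a log2 value of 4. GCRMA usually evens out the value distributions of arrays processed together, so near-equal shares do not show that the samples were alike. After such a step, a change shared by most mRNAs would not be seen. Arrays of 1 genotype correlated at 0.991 to 0.997 across all 45037 probe sets, dim ones included. All 14 measured markers of excitatory neurons reached 4 on all 12 arrays, and none of the 4 matched blood markers reached it on any array. WT replicate 4 and Fmr1 KO replicate 5 stood apart from the others. They lay at 34.0 and 43.2 on the first principal component, which held 31.1% of the variance, whereas the other 10 arrays lay between -21.4 and 6.90. Of the 9664 genes, 18.4% in WT replicate 4 and 17.9% in Fmr1 KO replicate 5 deviated by over 0.5 from the mean of the others of their group, against 1.49% to 9.21% in the other arrays. The deviations of these 2 arrays, 1 of each genotype, correlated at 0.71 across genes, which are not independent replicates. Several gene lists are given with and without them.

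Fmr1 itself was the first check of the labels. At its brightest probe set the WT arrays had log2 values of 9.63 at the lowest, 9.89 at the median and 10.27 at the highest. The Fmr1 KO arrays had 5.41, 6.40 and 6.60. The groups lay far apart, and the remaining Fmr1 KO signal was above the dim limit of 4 in every array. Fmr1 fell by 3.71 on the log2 scale at this probe set (SE 0.19, limma adjusted p = 4.35e-08), and in total RNA it fell by 3.28. At the second probe set WT arrays ran from 6.58 through a median of 7.15 to 7.80 and Fmr1 KO arrays from 3.49 through 4.09 to 4.27, again without overlap. Here Fmr1 fell by 3.18 in polyribosomal RNA (SE 0.18, limma adjusted p = 8.76e-08), and in total RNA it fell by 2.24. The difference between these falls was -0.93 (SE 0.17), which did not pass over all probe sets (limma adjusted p = 0.999), and the Fmr1 KO values at this probe set lay near the dim limit. At the dimmest probe set Fmr1 fell by 1.20 (SE 0.13, limma adjusted p = 0.00109). For each of the 3 probe sets the two-sided exact permutation p was 0.00216, the smallest that 924 splits of 6 against 6 arrays can give.

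No other gene passed the threshold, an adjusted p of 0.05 over all probe sets. Limma called 3 of 17687 probe sets (0.017%), all of Fmr1 and all lower, and 0 higher. By gene that is 1 of 9664, or 0.0103%. An unadjusted p under 0.05 was reached by 96 genes with lower values (0.993%) and 119 with higher values (1.23%). These counts depended on single arrays. They were 270 lower and 474 higher without WT replicate 4, 165 and 195 without Fmr1 KO replicate 2, 54 and 114 without Fmr1 KO replicate 5, 66 and 65 without WT replicate 3 and 104 and 77 without Fmr1 KO replicate 1. They were 160 and 186 with the replicate block, the fit that treats same-numbered arrays as pairs, and 199 and 348 with array weights. The 95% interval of the genotype difference lay within 0.5 log2 units on either side of 0 for 8043 genes (83.2%). It lay within 1 for 9648 genes (99.8%). The median half-width of these intervals was 0.273, so differences smaller than this could mostly not be told from 0. In all, 11 genes, Fmr1 among them, differed by over 0.5 between the group means. The number of arrays limits this precision, and since each replicate is a pool of mice, p-values measure the spread between pools. In tissue RNA, fewer cells of a type and less RNA per cell cannot be told apart.

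**Figure D1:**
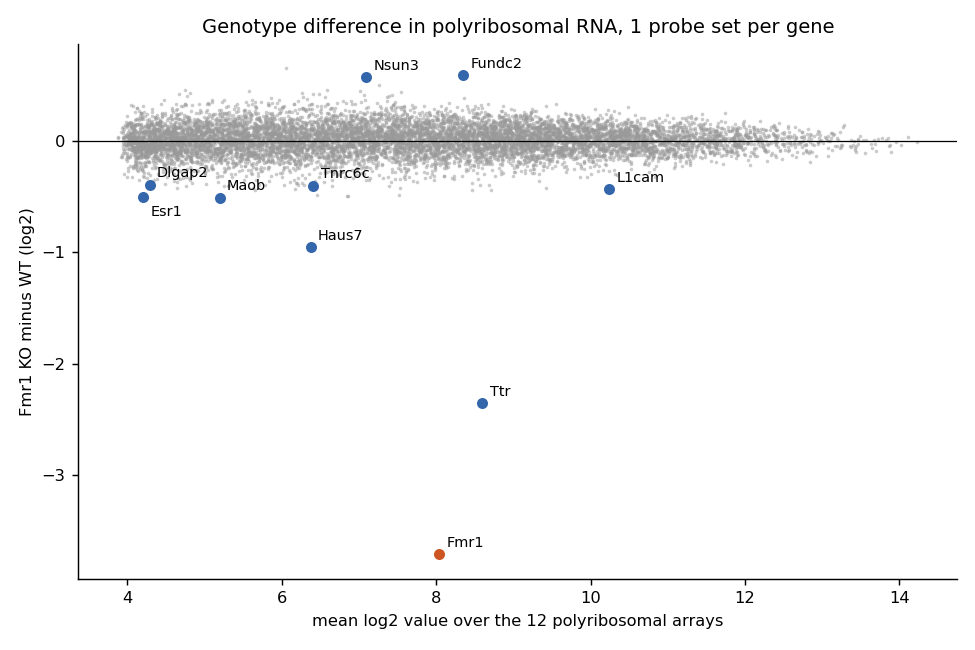
Difference between Fmr1 KO and WT polyribosomal RNA (vertical axis, log2) against the mean log2 value over the 12 arrays (horizontal axis), 1 point per gene for 9664 genes. Orange marks the gene past the threshold, Fmr1 at -3.71, and blue marks other genes named in the text, among them Haus7 at -0.95. Ttr at -2.35 had an SE of 1.95.

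Only 10 genes had Fmr1 KO and WT values that did not overlap on any array (0.103% of 9664), 4 of them lower in Fmr1 KO (0.0414%). The lower ones were Fmr1, Haus7, the oestrogen receptor gene Esr1 at -0.51 and the ciliary kinase gene Nek8 at -0.22. Esr1 and Nek8 lay near the dim limit, with Fmr1 KO medians of 4.01 and 3.99. The 6 higher ones had small differences. They were Zfp12, a zinc finger gene, at 0.35, Prkab2, which encodes a subunit of the energy sensor AMPK, at 0.31, and Ndufaf7, an assembly factor of mitochondrial complex I, at 0.29. The prostaglandin reductase gene Ptgr2 stood at 0.29, the RNA-binding protein gene Rbm48 at 0.24 and Odc1, the first enzyme of polyamine synthesis, at 0.12. None of these but Fmr1 passed the threshold. The probe sets named for Odc1 (of the _x_at kind) and for Ptgr2 and Ndufaf7 (_s_at) can also bind related transcripts. For Prkab2 and Ptgr2 the other measured probe sets gave smaller differences, from -0.02 to 0.27 and from -0.04 to 0.18.

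Haus7, which encodes a subunit of augmin, the complex that makes new microtubules branch from existing ones in the mitotic spindle, had the smallest p after Fmr1. Its WT values were 6.62 at the lowest, 6.80 at the median and 7.24 at the highest, and its Fmr1 KO values 5.32, 5.96 and 6.35. Every Fmr1 KO array lay below every WT array. The difference was -0.95 (95% interval -1.32 to -0.58, limma adjusted p = 0.270), 1.93-fold between the group means. In total RNA, where limma called 4 of 9690 genes (0.0413%), Haus7 fell by 0.98 (SE 0.11, limma adjusted p = 0.00250; 0.0579 without both arrays numbered 4), and the test of polyribosomal against total differences gave 0.03 (SE 0.15, limma adjusted p = 0.999). Haus7 passed in polyribosomal RNA when all 24 arrays shared 1 estimate of the spread (limma adjusted p = 0.00727). Of the 6 measured augmin genes, none passed. Haus4 stood at 0.44 (95% interval 0.05 to 0.83) and Haus1 at 0.42 (95% interval 0.00 to 0.84), both named after their values were seen, and Haus2, Haus3 and Haus8 lay between -0.11 and 0.00.

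Tnrc6c encodes a GW182 protein, which links Argonaute to the deadenylases in miRNA silencing, and its mRNA is also on the list of FMRP-bound mRNAs used here. Its brighter probe set had WT values from 6.51 through a median of 6.64 to 6.67 and Fmr1 KO values from 5.90 through 6.22 to 6.52. Its dimmer one had WT values from 5.55 through 5.73 to 6.07 and Fmr1 KO values from 5.06 through 5.28 to 5.53. The lowest WT and the highest Fmr1 KO array lay level at the first probe set, and the groups did not overlap at the second. The differences were -0.40 (95% interval -0.62 to -0.18) and -0.51 (95% interval -0.75 to -0.27), neither past the threshold (limma adjusted p = 1.00 for both). With all 24 arrays in 1 fit the second probe set passed (limma adjusted p = 0.0396). In total RNA the differences were -0.25 and -0.33, and those between polyribosomal and total RNA were -0.15 (SE 0.14) and -0.17 (SE 0.12). Across 19 measured miRNA effector genes the median difference was 0.01, as it was over all genes.

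**Figure D2:**
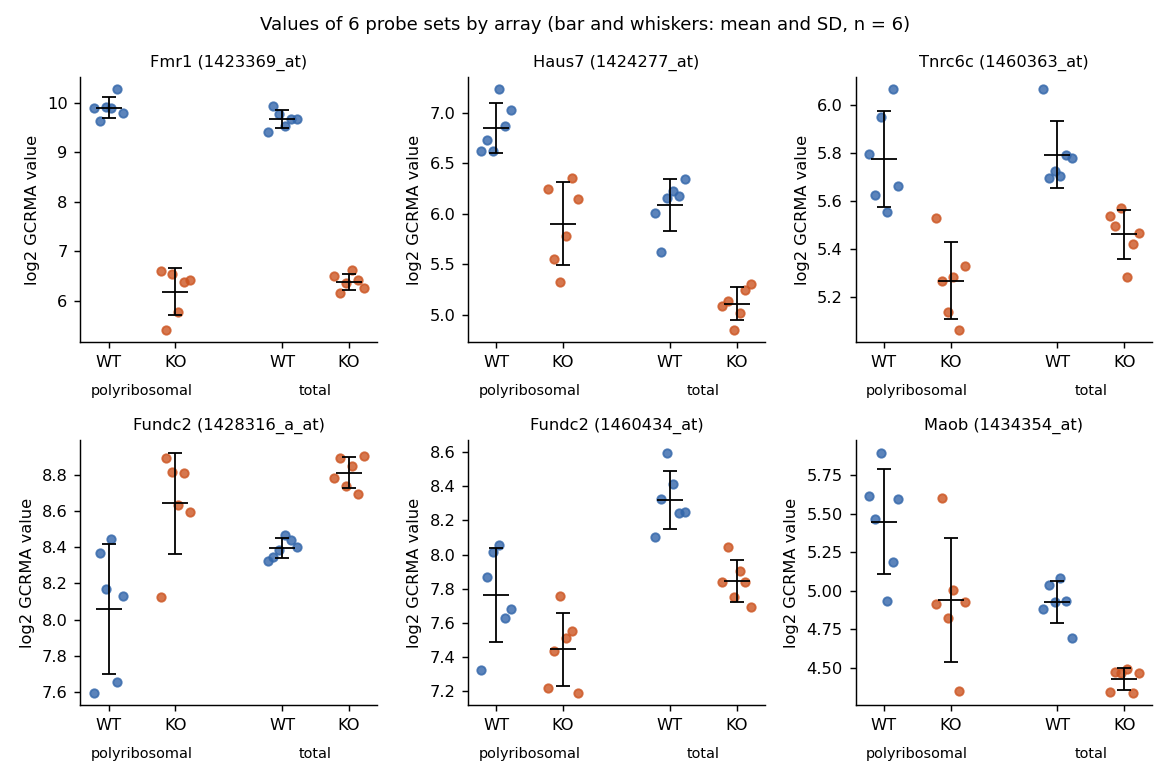
Log2 values of 6 probe sets on each WT (blue) and Fmr1 KO (orange) array, in polyribosomal RNA at the left and total RNA at the right of each panel. Points are arrays, and bars with whiskers are the mean and SD of 6 arrays. Fmr1 and Haus7 separate in both kinds of RNA, the 2 Fundc2 probe sets move in opposite directions, and polyribosomal values spread more widely than total values for Maob and Fundc2.

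Maob and Fundc2, both X-linked, were called in total RNA but not in polyribosomal RNA. Neither total RNA call held with the replicate block (limma adjusted p = 0.0699 for Maob and 0.0852 for Fundc2). When 1 replicate number was left out, that of Maob held only without number 6 and that of Fundc2 only without number 3 or 5. Maob, the gene of monoamine oxidase B, which breaks down amines such as dopamine, had WT values of 4.93, 5.53 and 5.90 at the lowest, median and highest and Fmr1 KO values of 4.35, 4.92 and 5.60. The groups overlapped, with Fmr1 KO replicate 2 the highest of its group. Its difference of -0.51 (95% interval -0.91 to -0.11, limma adjusted p = 1.00) stood beside -0.50 in total RNA, where the SE was 0.067 (limma adjusted p = 0.0105). Fundc2, a gene of the mitochondrial outer membrane, gave opposite values at its 2 measured probe sets. At the brighter WT ran from 7.59 through 8.15 to 8.45 and Fmr1 KO from 8.13 through 8.72 to 8.89, a difference of 0.59 (95% interval 0.23 to 0.94). At the other WT ran from 7.33 through 7.78 to 8.06 and Fmr1 KO from 7.19 through 7.47 to 7.76, a difference of -0.32 (95% interval -0.61 to -0.03). Neither passed, the groups overlapped at both, and total RNA showed the same split (0.42 and -0.48), so the array gives no single direction for Fundc2.

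Several genes with small p had larger differences on polyribosomes than in total RNA, though none passed a test. The genes were picked by their p in polyribosomal RNA. That choice by itself favours a larger difference there than in total RNA. Nsun3, a methyltransferase of mitochondrial tRNA, had WT values from 6.61 through a median of 6.69 to 7.23 and Fmr1 KO values from 6.91 through 7.36 to 7.83. The groups overlapped, WT replicate 4 being the highest WT array. Its difference was 0.57 (95% interval 0.24 to 0.89) in polyribosomal and 0.07 in total RNA (difference between them 0.49, SE 0.17, limma adjusted p = 0.999). Hars2, the mitochondrial histidyl-tRNA synthetase gene, stood at 0.41 and 0.11, and E130307A14Rik at 0.40 and 0.11. Samd4, which encodes the translational repressor Smaug, stood at -0.34 and -0.11. The kinesin gene Kif13a at -0.36 and the chromatin remodelling gene Arid2 at -0.35 had total differences of -0.23 and -0.18, but another Arid2 probe set stood at -0.28 in polyribosomal and -0.26 in total RNA. These 6 genes, with Haus7, Tnrc6c, Fundc2 and Zfp12, held the 10 smallest p after Fmr1. Testing the difference between polyribosomal and total RNA directly, limma called 0 of 9955 genes (0%), and 233 (2.34%) had an unadjusted p under 0.05.

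Fmr1 lies on the X chromosome, and its neighbours were compared with the rest of that chromosome. Gene order was taken from the RefSeq annotation of GRCm38.p6. Of the 50 measured genes within 25 places of Fmr1 on either side, 28 had values below 0, against 46.2% of all genes and 145 of the other 284 measured X-linked genes. For 1 of the 50, Haus7, the groups did not overlap, against 0.103% of all genes and 0 of those 284. At an unadjusted p under 0.05, 4 had lower values, all of them 12 to 23 places on 1 side of Fmr1, and 1 had a higher value. Of the other 284, 3 had lower and 3 higher values at that p. The nearest measured gene on the other side, the synaptic adhesion gene Slitrk2, stood at -0.16 in polyribosomal and -0.41 in total RNA.

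The 4 with lower values were Haus7, the cholesterol synthesis gene Nsdhl, the calmodulin-dependent kinase gene Pnck and L1cam, an adhesion molecule of growing axons. Nsdhl had a WT median of 9.54 and an Fmr1 KO median of 9.20, with a difference of -0.37 (95% interval -0.63 to -0.10) beside -0.28 in total RNA. Pnck stood at -0.26 (95% interval -0.46 to -0.05) beside -0.21. L1cam had WT values from 10.19 through 10.46 to 10.69 and Fmr1 KO values from 9.58 through 10.08 to 10.44, which overlapped. Its differences of -0.43 and -0.58 at 2 probe sets stood beside -0.07 and -0.20 in total RNA (difference between RNA kinds -0.36, SE 0.15, and -0.37, SE 0.20). Rap2c, a small GTPase gene 22 places away on the other side, was the 1 with a higher value, 0.36 beside -0.01 in total RNA. None of these passed over all probe sets.

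**Figure D3:**
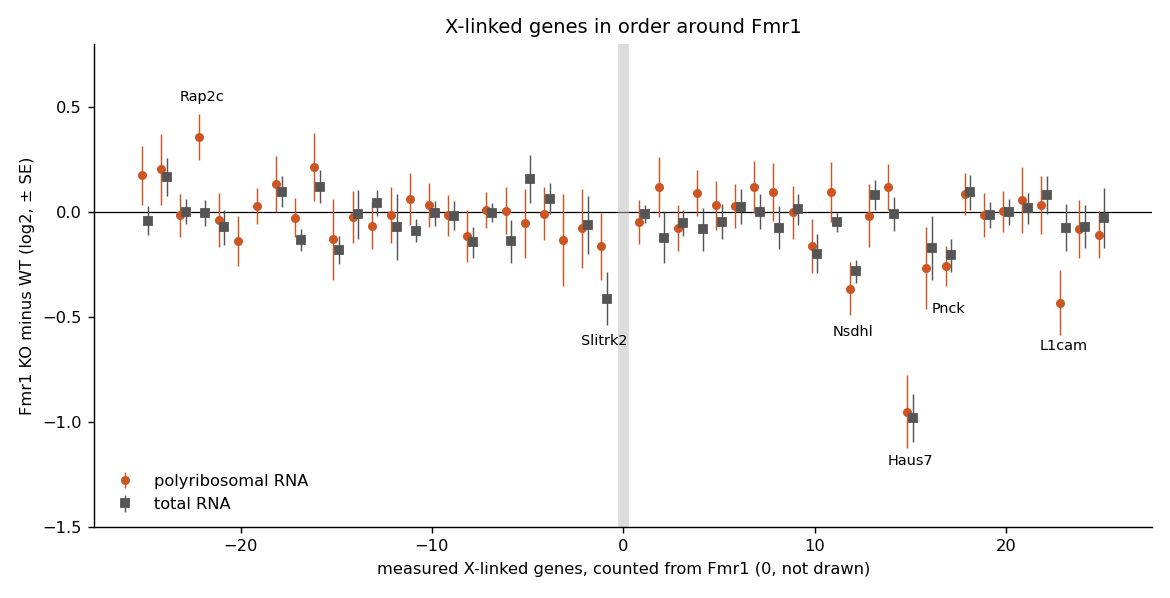
Difference between Fmr1 KO and WT (vertical axis, log2, whiskers SE) for the 50 measured X-linked genes nearest Fmr1 in gene order (horizontal axis, places from Fmr1, which is not drawn). Orange circles are polyribosomal RNA and grey squares total RNA. Haus7, 15 places from Fmr1, is the lowest in both, and L1cam lies at -0.43 in polyribosomal and -0.07 in total RNA.

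mRNAs bound by FMRP were listed from general knowledge of the published brain targets and grouped by the role of their protein. Of 253 entries 215 were measured, and limma called none in either direction. Unadjusted, 7 had lower and 1 had higher values with a p under 0.05, beside the 0.993% and 1.23% of all genes given above. Without WT replicate 4 these were 18 and 1, beside 270 lower and 474 higher among all 9664 genes in that fit. Leaving out 1 other array gave 3 to 10 lower and 0 to 1 higher. The fewest lower came without Fmr1 KO replicate 4, where 98 of all 9664 genes were lower. The most came without Fmr1 KO replicate 2, where 165 of all genes were lower. Their values lay mostly below 0: 166 of 215 (77.2%) were below 0, against 46.2% of all genes, with a median of -0.08 against 0.01. In total RNA 121 of 215 were below 0, against 55.4% of all genes, with a median of -0.01. For 161 of the 215 the 95% interval lay within 0.5 of 0 on either side, and for all but the dynein heavy chain gene Dync1h1 it lay within 1.

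This shift was smaller than the spread between arrays. The median deviation of the 215 mRNAs from their 12-array mean averaged 0.04 ± 0.14 over the WT arrays and -0.03 ± 0.17 over the Fmr1 KO arrays (SD, n = 6 each). Fmr1 KO replicate 5 was lowest at -0.33 and WT replicate 4 next at -0.22, and the other 10 arrays lay between -0.12 and 0.17, from -0.01 to 0.17 in WT and from -0.12 to 0.13 in Fmr1 KO. Without Fmr1 KO replicate 5 and WT replicate 4 the median difference was -0.06 and 150 of 215 values were below 0. Without both arrays numbered 5 it was -0.02, with 128 of 215 below 0, and without both numbered 4 it was -0.14, with 182 below 0. In both outlying arrays, 31 of the 215 (14.4%) lay over 0.5 below the others of their group, against 3.50% of all genes. Over 0.5 above lay 0 of the 215, against 371 of all 9664 genes. The part of these 2 arrays in the list's difference was otherwise not tested.

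**Figure D4:**
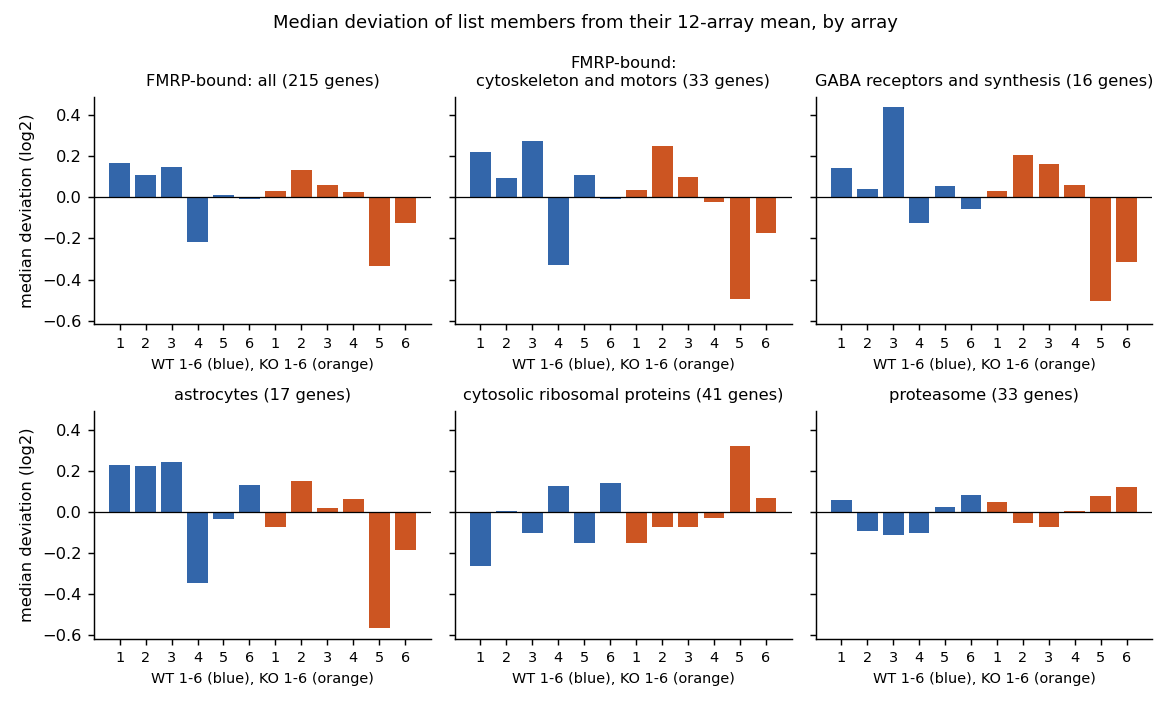
Median deviation of the members of 6 gene lists from their mean over the 12 polyribosomal arrays (vertical axis, log2), for each WT (blue) and Fmr1 KO (orange) replicate. WT replicate 4 and Fmr1 KO replicate 5 are the lowest of their groups for FMRP-bound, cytoskeletal and astrocyte genes, and Fmr1 KO replicate 5 is the highest for ribosomal protein genes.

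Among FMRP-bound mRNAs of postsynaptic scaffolds and receptors, 14 of 22 lay below 0 (median -0.03), and 11 of 22 without the 2 outlying arrays (median -0.01). Dlgap2, a scaffold of the postsynaptic density, had the largest difference, with WT values from 4.11 through 4.51 to 4.83 and Fmr1 KO values from 3.69 through 4.09 to 4.61. The groups overlapped near the dim limit, and the difference was -0.39 (95% interval -0.76 to -0.03). Sipa1l1, a spine-associated GTPase activator, stood at -0.30 (95% interval -0.54 to -0.06). Among well-studied FMRP targets were the glutamate receptor gene Gria2 at 0.02 (95% interval -0.33 to 0.37), Grm5, the receptor at the centre of the mGluR account of fragile X, at -0.19 (95% interval -0.51 to 0.13), and Dlgap4 at 0.07 (95% interval -0.14 to 0.28). Dlg4, which encodes PSD-95, stood at 0.21 (95% interval -0.37 to 0.80), with WT replicates 3 and 5 and Fmr1 KO replicate 6 at 6.72 to 6.81 and the other arrays at 7.74 to 8.13. The kinase gene Camk2a stood at -0.17 (95% interval -0.68 to 0.34), and its 5 measured probe sets ran from -0.21 to 0.27. Arc and Shank1 did not reach the level required for testing.

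Presynaptic and adhesion mRNAs lay below 0 in 28 of 35 cases (median -0.11; 27 and -0.10 without the 2 outlying arrays), the lowest being the active zone gene Ppfia3 at -0.33 (95% interval -0.82 to 0.15). App, the amyloid precursor, stood at -0.18 (95% interval -0.43 to 0.07), with a WT median of 12.16 and an Fmr1 KO median of 11.96. Cytoskeletal and motor mRNAs were below 0 in 31 of 33 cases (median -0.10). They were led by the linker gene Plec at -0.34 and the spectrin gene Sptbn1, named after its values were seen, at -0.32. For Plec, 5 of the 6 Fmr1 KO arrays reached the dim limit of 4. Map1b, a classical FMRP target that stabilises microtubules, had WT values from 10.14 through 10.49 to 10.66 and Fmr1 KO values from 9.90 through 10.33 to 10.70. The groups overlapped throughout, and its difference was -0.14 (95% interval -0.45 to 0.17). Without the 2 outlying arrays, 29 of the 33 cytoskeletal mRNAs lay below 0 and their median was -0.12. Without both arrays numbered 5 it was 20 of 33 with a median of -0.02, and without both numbered 4 it was 33 of 33 with a median of -0.18. Dync1h1, Sptbn1 and the kinesin gene Kif1a, all on this list, were among the genes lowest in both outlying arrays. Dync1h1 deviated from the others of its group by -1.82 in WT replicate 4 and by -1.75 in Fmr1 KO replicate 5. For Sptbn1 these deviations were -0.89 and -0.92.

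**Figure D5:**
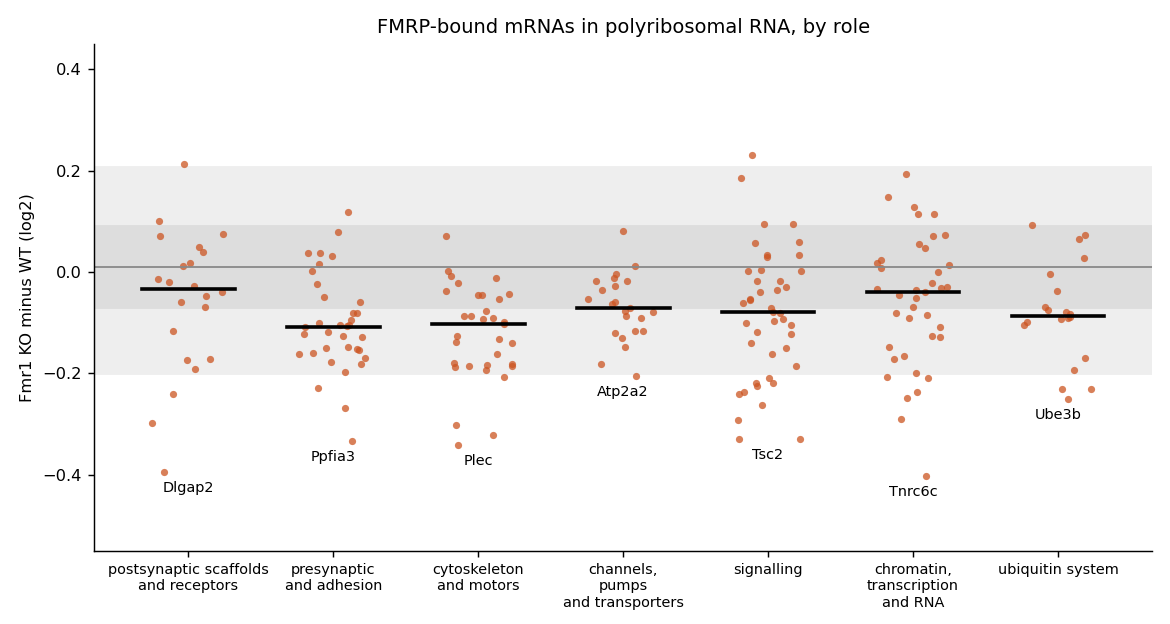
Difference between Fmr1 KO and WT polyribosomal RNA (vertical axis, log2) of 215 FMRP-bound mRNAs in 7 groups by role, 1 point per gene, with the median of each group as a black bar and the lowest gene named. The grey line is the median of all 9664 genes, 0.01, and the dark and light bands span their 25th to 75th and 5th to 95th percentiles, -0.07 to 0.09 and -0.20 to 0.21.

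Channel, pump and transporter mRNAs lay below 0 in 21 of 23 cases (median -0.07), with none under the calcium pump gene Atp2a2 at -0.20. Without the 2 outlying arrays, and likewise without both arrays numbered 5, 14 of 23 lay below 0 and the median was -0.01. Without both numbered 4 it was 20 of 23 with a median of -0.15. The potassium channel genes Kcnma1 at 0.00 (95% interval -0.41 to 0.40), Kcnd2 at -0.09 and Kcnt1 at -0.08 and the calcium channel gene Cacna1b at -0.15 were all within their array spread. Signalling mRNAs were below 0 in 31 of 43 cases (median -0.08), and also in 31 without the 2 outlying arrays (median -0.07). Among them were Arhgap32 at -0.33 (95% interval -0.59 to -0.06), and Tsc2, a brake on mTOR, at -0.33 (95% interval -0.71 to 0.05) beside 0.02 in total RNA. Prkce, a protein kinase C gene named after its values were seen, was the 1 FMRP-bound gene with a higher value at an unadjusted p under 0.05, at 0.23. Chromatin, transcription and RNA genes were below 0 in 25 of 39 cases (median -0.04) and ubiquitin system genes in 16 of 20 (median -0.09). Without the 2 outlying arrays these were 24 of 39 and 14 of 20 (medians -0.05 and -0.06). Without both arrays numbered 5 they were 20 of 39 and 8 of 20, and without both numbered 4 they were 29 of 39 and 19 of 20.

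The FMRP family and its partners, 25 measured, held Fmr1 as their 1 called member. The relatives Fxr1 and Fxr2 stood at -0.03 (95% interval -0.26 to 0.19) and -0.17 (95% interval -0.54 to 0.20). Cyfip2, a partner of FMRP in actin and translation control, stood at -0.04 (95% interval -0.30 to 0.21), and the cap-binding gene Eif4e at 0.08 (95% interval -0.18 to 0.35). These are values of each gene's brightest probe set. At a second probe set Cyfip2 stood at -0.25 (95% interval -0.47 to -0.02) and Eif4e at 0.20 (95% interval -0.11 to 0.51), and the other 3 probe sets of Fxr1 ran from -0.11 to 0.23.

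Genes of the translation machinery and the pathways linked to fragile X differed little. The 42 measured initiation and elongation factors had a median of 0.02, with Eif4ebp1, the repressor of cap-dependent initiation, at 0.23. Its probe set is of the _x_at kind, which can also bind related transcripts, and 5 of the 6 WT arrays reached 4. When arrays were left out its difference ran from 0.10 to 0.31. The 24 genes of the mTOR and PI3K pathway had a median of 0.01. The mTOR inhibitor gene Deptor, at 0.35 (95% interval -0.00 to 0.70), and Mtor itself, at -0.04 (95% interval -0.33 to 0.26), were among them. The 13 genes of group 1 mGluR signalling had a median of 0.01, with the phospholipase gene Plcb1 at -0.29 and the eIF4E kinase gene Mknk2 at 0.23. The phosphatase gene Ppp2ca, a proposed FMRP target, stood at -0.02 (95% interval -0.20 to 0.16), but 1 of its 3 probe sets stood at 0.33. Ribosomal protein mRNAs (41, median 0.03) lay below 0 in 7 cases. Without the 2 outlying arrays 20 of 41 lay below 0 (median 0.00), without both arrays numbered 5 it was 28 (median -0.03), and without both numbered 4 it was 4 (median 0.07). Proteasome mRNAs (33, median 0.05) lay above 0 in 24 cases, and all 33 intervals lay within 0.5 of 0 on either side. None of these lists had a called member.

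GABA receptor and synthesis genes lay below 0 in 14 of 16 cases (median -0.13). In total RNA 16 of 17 lay below 0 (median -0.07), against 55.4% of all genes. The largest polyribosomal differences were those of 2 receptor subunits. Gabrd had WT values from 5.42 through 6.05 to 6.44 and Fmr1 KO values from 4.74 through 5.66 to 6.19, a difference of -0.40 (95% interval -0.94 to 0.15). Gabra2 had a difference of -0.35 (95% interval -0.82 to 0.12). The values of both overlapped widely between genotypes. Without the 2 outlying arrays 12 of 16 lay below 0 (median -0.07), without both arrays numbered 5 it was 11 (median -0.03), and without both numbered 4 it was 14 (median -0.21). Immediate early genes (21, median -0.08) and cell cycle genes (19, median -0.03) had no called member, with medians of -0.01 and -0.05 without the 2 outlying arrays, and the cyclin gene Ccne2 stood at -0.38 (95% interval -0.67 to -0.09).

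No measured marker of a cell type was called in polyribosomal RNA. Excitatory neuron markers had a median difference of 0.03 and interneuron markers of -0.01. Astrocyte markers had a median of -0.14, with 13 of 17 below 0, and of -0.16 with 12 of 17 below 0 without the 2 outlying arrays. Their median was -0.06 without both arrays numbered 5 and -0.25 without both numbered 4, each with 14 of 17 below 0. Oligodendrocyte lineage markers had a median of -0.07, with 7 of 9 below 0, and of -0.05 with 6 of 9 below 0 without the 2 outlying arrays. Without both arrays numbered 5 their median was -0.03, and without both numbered 4 it was -0.15. The summed level of the astrocyte markers, the log2 of the sum over the marker list, ran from 13.2 to 13.9 in WT and from 13.1 to 13.8 in Fmr1 KO, and their median deviation was lowest in WT replicate 4 at -0.35 and Fmr1 KO replicate 5 at -0.57. Their part in the values of FMRP-bound or GABA genes was not tested. Microglial, endothelial and meningeal markers, with 4, 5 and 7 measured members, had medians of -0.05, -0.14 and -0.03, and the 2 measured choroid plexus markers had a median of -1.21. Without the 2 outlying arrays these 4 medians were -0.08, -0.07, 0.03 and -1.43. In total RNA, where none was called, medians were -0.06 for astrocyte, -0.09 for oligodendrocyte lineage and -0.28 for microglial markers. Of these 13 of 17, 9 of 10 and 3 of 3 lay below 0, against 55.4% of all genes. An unadjusted p under 0.05 was reached by 2 of the 3 microglial and 2 of the 17 astrocyte markers, against 5.05% of all genes. Excitatory neuron, interneuron, endothelial, meningeal and choroid plexus medians there were 0.05, -0.02, 0.02, -0.04 and -1.07. Ttr, the transthyretin gene that marks choroid plexus, was split among arrays of both genotypes: WT values ran from 3.74 through 11.59 to 12.19 and Fmr1 KO values from 2.82 through 7.39 to 12.14. It was high in WT replicates 1, 2, 4 and 6 and Fmr1 KO replicates 2, 4 and 5. Its difference of -2.35 had an SE of 1.95, and 8 of the 11 matched choroid plexus markers reached 4 on no array.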

How the data were processed

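RNA of 12 polyribosomal and 12 total samples was measured on Affymetrix MG430 2.0 GeneChips. Per the submitters' processing notes, the deposited values were made with GCRMA, and their range and near-equal medians place them on the log2 scale. The GCRMA version, and whether all arrays were normalized together, are not given in the sources used here. The table covers 45037 probe sets, of which 34945 carry 1 gene symbol, 932 several and 9160 none; those without a single symbol were tested but not named.

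Differences (Fmr1 KO minus WT) were fitted on the 12 polyribosomal arrays by lmFit and eBayes of limma 3.58.1 (R 4.3.3), two-sided, and p-values were adjusted by Benjamini and Hochberg's method over all tested probe sets. Total RNA was fitted likewise, and polyribosome association was tested on the polyribosomal minus total difference of each lysate. The labels call the samples of a group biological replicates. The fits were checked on simulated data. Figures used matplotlib 3.10.9.

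Named were every Fmr1 probe set, genes past the threshold, the 10 smallest p after Fmr1, the up to 6 largest non-overlapping differences in each direction, each list's largest difference and smallest p, X-linked neighbours with an unadjusted p under 0.05, and a set of well-known genes. Members, lists and the rule were chosen with earlier results of these data known. Alternatives covered the filter, centring, quantile normalization, all 24 arrays in 1 fit, eBayes with trend, array weights, the replicate block and leaving out arrays.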

Additional observations from a re-analysis of the deposited data

Results flagged for a closer look

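In groups of 6 arrays, a value was marked when its gap to the nearest other exceeded Dixon's critical share of the group's range. Of 220 groups checked 17 were marked, and chance marks about 1 in 20.

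The 2 outlying arrays account for several. WT replicate 4 had the lowest mean correlation with its group over the 17687 measured probe sets, 0.981, and lay at 34.0 on the first principal component, and Fmr1 KO replicate 5 lay at 43.2. In WT replicate 4 the median deviation of FMRP-bound chromatin, transcription and RNA genes was -0.22 and of FMRP-bound ubiquitin genes -0.32. Nsdhl was low there at 9.04 and Eif4e high at 11.04. In Fmr1 KO replicate 5 the median deviation of the FMRP family and partners was -0.17.

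Fmr1 KO replicate 1 was high for Ndufaf7 at 8.98 and for Slitrk2 at 5.78. Fmr1 KO replicate 3 was high for Deptor at 7.83, and its median deviation for translation factors was -0.076. Fmr1 KO replicate 6 was low for Dlg4 at 6.72. WT replicate 2 was low for Rbm48 at 6.76, WT replicate 3 for Zfp12 at 5.25 and WT replicate 6 for Kcnma1 at 7.28. In WT replicate 5 the median deviation of immediate early genes was -0.047.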

How the results depend on the processing

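With all 24 arrays in 1 fit, 5 probe sets were lower in polyribosomal RNA (3 of Fmr1, with Haus7 and Tnrc6c), and with a stricter filter, a log2 value of at least 5, 2 were lower. In total RNA, leaving out 1 replicate number gave 3 to 5 lower and 0 to 1 higher probe sets (6 and 1 with all), and with the replicate block 4 lower and 0 higher. The mice were littermates, but no label says that equal replicate numbers mark a littermate pair, so the main fit was unpaired. Residuals of same-numbered polyribosomal arrays correlated at 0.38, 0.42, 0.63 and 0.27 for numbers 1, 2, 3 and 6. For numbers 4 and 5 they correlated at -0.14 and -0.12. Only numbers 2 and 3 were each other's best match, and WT replicate 1 also matched Fmr1 KO replicate 1 best. With the replicate block 3 probe sets were lower and 0 higher in polyribosomal RNA.

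Of 2176 values of named probe sets under alternatives, 60 changed sign, in 12 genes that did not pass. Leaving out arrays gave -0.30 to 0.034 for Camk2a, -0.0085 to 0.21 for Eif4e, -0.18 to 0.075 for Kcnt1, -0.18 to 0.043 for Dlgap3, -0.10 to 0.028 for Cyfip2, -0.089 to 0.067 for Fxr1, -0.14 to 0.10 for Mtor, -0.063 to 0.17 for Nlgn3, -0.051 to 0.024 for Ppp2ca, -0.22 to 0.11 for Lgals1, -0.067 to 0.13 for Gria2 and -0.14 to 0.12 for Kcnma1. Array weights gave 0.011 for Fxr1 and 0.036 for Kcnma1. The cause was not tested.

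The pooled mice, 6 pools a genotype, bound what could be seen: the median 95% half-width of a gene's difference was 0.273 log2 units. Haus7 ran from -1.07 to -0.84 when arrays were left out, with limma adjusted p = 0.101 to 0.999.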
